A study of Mus musculus with 6 samples.

Results

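The genes examined here encode components of TGF-beta, BMP and activin signaling, measured by bulk RNA sequencing of injured mouse left ventricles. They were chosen by gene symbol from a fixed list of 45 genes in 6 classes: ligands, latent binding proteins, extracellular antagonists, receptors, Smads and intracellular or membrane negative regulators. Of these 45 genes, 42 were among the 15909 genes of the deposited table. The ligand genes Bmp10 and Mstn and the BMP antagonist gene Grem1 were not analysed here. Adult mice underwent permanent ligation of the left anterior descending coronary artery to induce myocardial infarction (MI). The study's methods describe C57/B6J animals for its CCN3 dosing. They were then injected intraperitoneally with recombinant human CCN3, a secreted matricellular protein, at 6 µg/kg, or with PBS as control. RNA came from left ventricles at 4 dpi (days post injury), with 3 libraries from CCN3 treated and 3 from PBS treated mice. Both groups were infarcted and no uninjured ventricle was included, so each difference given is between treatments after MI. The sources differ on whether dosing was daily for 4 days or for a shorter run that began the day after surgery. Values are log2 CPM, the log2 of the counts of a gene scaled to a common library total, after the authors took out unwanted variation by their RUV step. The depth of reads behind them is unknown.

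TGF-beta family ligands are secreted dimers that bring together type I and type II receptor kinases, which then phosphorylate receptor-regulated Smads at their C-terminal end. TGF-beta and activin act mainly through Smad2 and Smad3, and BMPs mainly through Smad1, Smad5 and Smad9, and both branches share Smad4 as a partner. TGF-beta is secreted in a latent complex that latent TGF-beta binding proteins tether to the matrix, whereas activins are held in check by follistatin and its relatives. In the infarcted heart, TGF-beta signaling is known as a driver of the conversion of fibroblasts to myofibroblasts and of scar formation.

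The comparison of CCN3 with PBS addressed whether the administered protein changed the transcript levels of this signaling system in the injured ventricle. Fstl3, Pmepa1 and Ltbp2 rose, by 1.59-fold, 1.28-fold and 1.41-fold, and 0 of the 42 measured members fell. A gene was called when its adjusted p was under 0.2, the false discovery rate threshold of the study, in a limma model fitted over all 15909 genes. The 3 members that rose make 7.14% of the 42, beside 0.515% of all genes that rose and 1.08% that fell. The activin subunit genes Inhba and Inhbb were also higher in every CCN3 treated library than in any PBS treated library, but did not pass over all genes. No receptor or Smad gene passed. The 16 measured ligands, latent binding proteins and antagonists had a median Log2FC of 0.20 with 15 positive. The 19 receptors and Smads had one of 0.0061 with 10 positive, and the 7 negative regulators one of 0.08 with 7 positive. This pooling of classes was not planned, and the differences were not tested. Log2FC, the mean log2 CPM of CCN3 treated minus that of PBS treated libraries, was positive for 32 members and negative for 10, with a median of 0.07 beside -0.0018 over all genes. Groups did not overlap for 14 members with CCN3 above PBS (33.3%) and for 3 members with CCN3 below PBS (7.14%), where the shares over all genes were 15.1% and 18.2%. At an unadjusted p under 0.05, 7 members were higher (16.7%) and 1 was lower (2.38%), beside 4.05% and 6.59% of all genes. In ventricular tissue, a change in the number of cells of one type cannot be told apart from a change in RNA per cell.

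The regions just before the canonical transcript starts of the 3 genes that rose are shown because Smad proteins act through short DNA elements near their target genes. The windows hold 250 bases on the GRCm39 assembly, taken before the canonical GENCODE start and read 5′ to 3′ on the strand of the gene. They lie at chr10:79612846-79613095 on the plus strand for Fstl3, chr2:173118333-173118582 on the minus strand for Pmepa1 and chr12:84923307-84923556 on the minus strand for Ltbp2. Of the Pmepa1 window, 112 bases lie inside the annotated gene, which reaches beyond its canonical start, and 0 bases do so for the other windows. Capitals mark the Smad half-site CAGAC or its reverse complement GTCTG.
Fstl3: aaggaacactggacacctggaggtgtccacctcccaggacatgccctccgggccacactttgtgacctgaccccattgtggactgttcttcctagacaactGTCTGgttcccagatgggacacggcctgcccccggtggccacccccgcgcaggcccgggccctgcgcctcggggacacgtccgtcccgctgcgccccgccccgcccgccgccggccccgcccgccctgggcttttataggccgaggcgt
Pmepa1: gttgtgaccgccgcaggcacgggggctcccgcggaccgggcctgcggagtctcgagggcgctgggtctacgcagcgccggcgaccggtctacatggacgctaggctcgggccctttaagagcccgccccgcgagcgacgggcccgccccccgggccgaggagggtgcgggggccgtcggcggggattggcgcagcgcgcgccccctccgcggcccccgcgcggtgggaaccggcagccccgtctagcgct
Ltbp2: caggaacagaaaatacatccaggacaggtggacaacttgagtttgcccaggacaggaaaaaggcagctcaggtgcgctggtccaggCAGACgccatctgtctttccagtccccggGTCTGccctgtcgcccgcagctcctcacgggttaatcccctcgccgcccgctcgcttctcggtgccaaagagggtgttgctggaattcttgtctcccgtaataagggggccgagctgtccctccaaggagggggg

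CAGAC was found on either strand once in the Fstl3 window and at 2 places in the Ltbp2 window. It was not found in the Pmepa1 window, whose GC content of 78.8% was above the median of 56.4% over 14851 such windows. This half-site is common: 41.6% of the 14851 windows and 19 of the 42 member windows held it. With 1 more base, as CAGACA, it was in 14.5% of all windows and in 9 of the 42 member windows. Among the 3 genes that rose, CAGACA was in the window of Fstl3 alone. The GC-rich element GGCGCC stood in 12.1% of all windows and in 12 of the 42 member windows. The Tead site GGAATG stood in 11.8% of all windows and in 3 of the 42 member windows. Neither was in the windows of the 3 genes that rose. The full palindrome GTCTAGAC was in 0.269% of all windows and in 1 member window, that of the inhibitory Smad gene Smad7. Each motif was searched on both strands, CAGACA contains CAGAC, and a match is not evidence of binding.

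**Figure D1:**
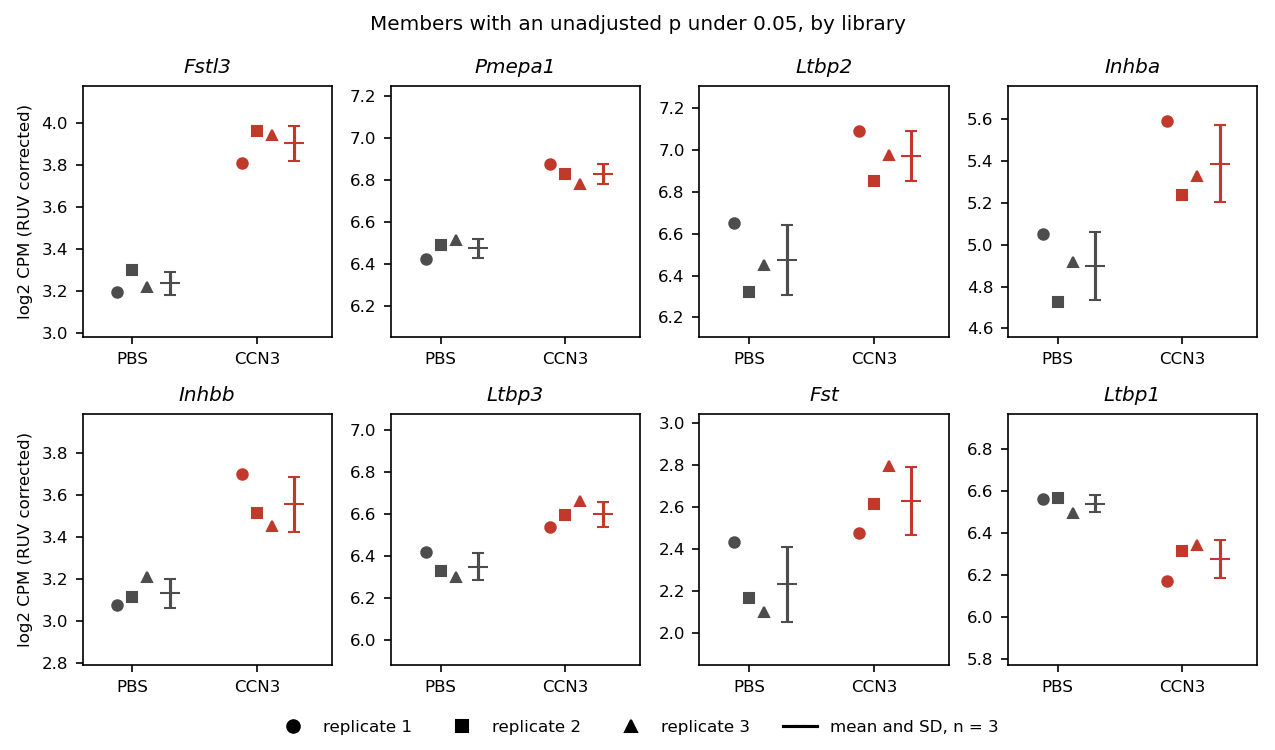
Log2 CPM (RUV corrected) of the 8 members with an unadjusted p under 0.05 in each library, with PBS in grey, CCN3 in red, symbols for the replicate number, and the mean and SD of 3 libraries beside them. Each panel spans the same range on the log2 scale, and in each the 3 CCN3 treated libraries lie on one side of the 3 PBS treated libraries, above for 7 genes and below for Ltbp1.

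Among the extracellular antagonists, Fstl3 had the largest Log2FC of the 42 measured members. Fstl3 encodes follistatin-like 3, a secreted glycoprotein that binds and neutralizes activins and myostatin, and lies on chromosome 10 from 79613096 to 79618464 (GRCm39). Its log2 CPM was 3.19, 3.30 and 3.22 in PBS replicates 1, 2 and 3, and 3.81, 3.96 and 3.94 in CCN3 replicates 1, 2 and 3. The groups were separated by more than the spread within either of them. Fstl3 rose from 3.24 ± 0.06 to 3.91 ± 0.08 log2 CPM (SD, n = 3), with a Log2FC of 0.67 ± 0.10 (SE) and a limma adjusted p of 0.132. It was 39th of 15909 genes by p, and passed in each of the 6 fits that left out 1 library, with Log2FC between 0.64 and 0.72. Part of the Fstl3 gene overlaps Prss57 on the opposite strand, which was not analysed here, and whether counting used strand is not given in the sources used here.

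Fst encodes follistatin itself, which traps activins with high affinity. Its log2 CPM was 2.44, 2.17 and 2.10 in PBS replicates 1, 2 and 3, and 2.47, 2.62 and 2.80 in the CCN3 replicates. All CCN3 values were above all PBS values, but PBS replicate 1 and CCN3 replicate 1 were close together. The Log2FC of 0.40 ± 0.16 (SE) did not pass (limma adjusted p = 0.447, unadjusted p = 0.0441). Fstl1, a secreted glycoprotein made by cardiac stromal cells, was far more abundant, at 10.49 ± 0.15 and 10.65 ± 0.10 log2 CPM with PBS and with CCN3. Its libraries overlapped and its Log2FC of 0.16 (95% interval -0.11 to 0.43) did not pass.

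Pmepa1 was the only one of the 7 negative regulators that rose. It encodes a membrane protein that is induced by TGF-beta and dampens the pathway by sequestering receptor-regulated Smads, and lies on chromosome 2 from 173066251 to 173118444. PBS replicates 1, 2 and 3 had 6.42, 6.49 and 6.51 log2 CPM of Pmepa1, and CCN3 replicates 1, 2 and 3 had 6.88, 6.83 and 6.78. The 3 values of each group were close together and the groups were well apart. Pmepa1 rose from 6.47 ± 0.05 to 6.83 ± 0.05 log2 CPM (SD, n = 3), with a Log2FC of 0.36 ± 0.06 (SE) and a limma adjusted p of 0.158. Without PBS replicate 3 its Log2FC was 0.37 and its adjusted p 0.202, so that it missed the threshold.

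The other negative regulators had small positive Log2FC, and none passed. Skil, which encodes the Smad corepressor SnoN and is itself a TGF-beta target, was at 6.84 ± 0.04 and 6.95 ± 0.05 log2 CPM with PBS and with CCN3. Its groups did not overlap, yet the Log2FC of 0.11 had a 95% interval of -0.03 to 0.25. Tgif1, another corepressor gene, had a Log2FC of 0.11, and Ski one of 0.03. The ubiquitin ligase genes Smurf1 and Smurf2, whose products mark receptors and Smads for degradation, had Log2FC of 0.08 and 0.03. Bambi, which encodes a pseudoreceptor without kinase activity, was at 0.03, and between -0.0099 and 0.0975 in the fits that left out 1 library.

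**Figure D2:**
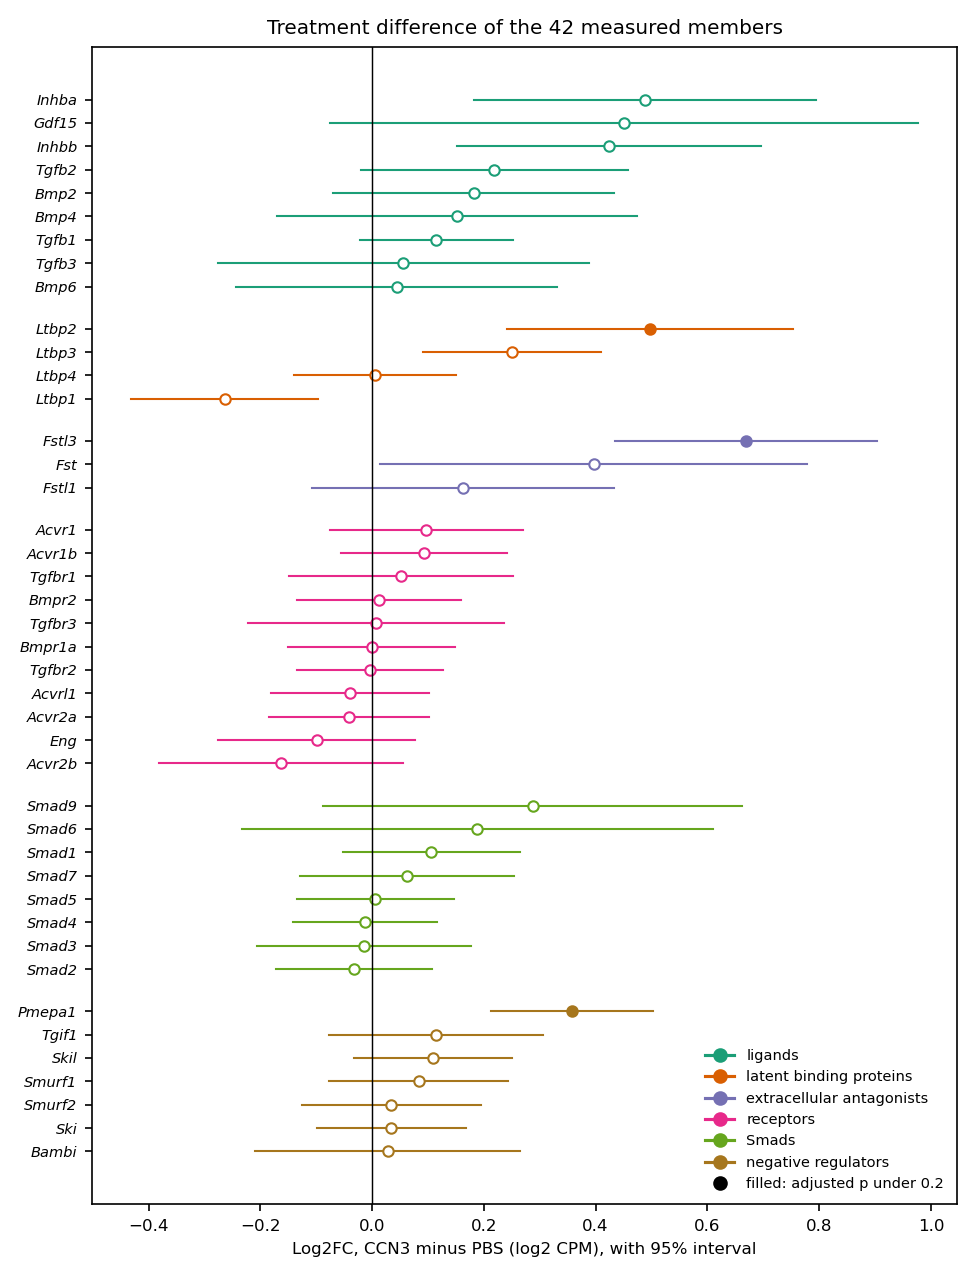
Log2FC (CCN3 minus PBS, log2 CPM) of the 42 measured members with 95% intervals, grouped by class and sorted within it. Filled points mark the 3 members with an adjusted p under 0.2 (Fstl3, Pmepa1 and Ltbp2), all to the right of 0, while intervals of all receptors and Smads include 0.

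The 4 latent binding protein genes differed in direction. Ltbp2 encodes a matrix protein of this family that, in contrast to its relatives, does not bind latent TGF-beta, and lies on chromosome 12 from 84829986 to 84923306. Its log2 CPM was 6.65, 6.32 and 6.45 in PBS replicates 1, 2 and 3, and 7.09, 6.85 and 6.98 in the CCN3 replicates. PBS replicate 1 was the closest to the CCN3 treated libraries, and the groups did not overlap. Ltbp2 rose by a Log2FC of 0.50 ± 0.11 (SE), with a limma adjusted p of 0.197 that was just under the threshold. It did not pass without PBS replicate 3 (Log2FC 0.49, adjusted p = 0.293) or without CCN3 replicate 3 (0.50, adjusted p = 0.257), nor with each library centred on its median (0.51, adjusted p = 0.201).

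Ltbp1 and Ltbp3, which encode carriers of latent TGF-beta, lay on opposite sides. Ltbp1 had 6.56, 6.57 and 6.49 log2 CPM in PBS replicates 1, 2 and 3, and 6.17, 6.31 and 6.34 in the CCN3 replicates, so every CCN3 treated library was lower. Its Log2FC was -0.26 ± 0.07 (SE), the most negative of the 42 members, and it did not pass over all genes (limma adjusted p = 0.265, unadjusted p = 0.00784). Ltbp3 had 6.42, 6.33 and 6.30 log2 CPM in the PBS replicates and 6.54, 6.60 and 6.66 in the CCN3 replicates, so every CCN3 treated library was higher. The Log2FC of Ltbp3 was 0.25 ± 0.07 (SE) and did not pass either (limma adjusted p = 0.265, unadjusted p = 0.00796). Both Ltbp1 and Ltbp3 passed without PBS replicate 1 (adjusted p = 0.148 and 0.0861) and without CCN3 replicate 1 (0.143 and 0.133). Ltbp4 was the most abundant of the 4 per transcript length in PBS treated ventricles, at 47.4 CPM per kilobase against 13.2 to 14.2 for the others. Its log2 CPM was 8.15, 8.07 and 8.12 in the PBS replicates and 8.17, 8.09 and 8.11 in the CCN3 replicates, with a Log2FC of 0.0057 and a 95% interval of -0.14 to 0.15.

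Log2 ratios within a library do not depend on how libraries were scaled. The log2 ratio of Ltbp2 to Ltbp4 lay between -1.75 and -1.50 in PBS treated and between -1.23 and -1.08 in CCN3 treated libraries. The ratio of Ltbp2 to Ltbp1, added after the values were seen, went from between -0.25 and 0.09 to between 0.54 and 0.92. Ltbp2 and Ltbp1 were thus near equal in log2 CPM in PBS treated ventricles, and Ltbp2 was the higher in all 3 CCN3 treated libraries. These ratios are given as a description and were not tested.

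Ligand genes leaned one way, with a positive Log2FC for all 9 that were measured, a median of 0.18 and 0 that passed. The Log2FC of Tgfb3 and Bmp6 were near 0 and turned negative in at least 1 fit that left out 1 library. Inhba and Inhbb, the genes of the beta subunits that form activin A and activin B, were the ligand genes with an unadjusted p under 0.05. Inhba, on chromosome 13 from 16186373 to 16206206, had 5.05, 4.73 and 4.92 log2 CPM in PBS replicates 1, 2 and 3, and 5.59, 5.24 and 5.33 in the CCN3 replicates. CCN3 replicate 1 was the highest of all 6 libraries, and the lowest CCN3 value was above the highest PBS value. The Log2FC of Inhba was 0.49 ± 0.13 (SE), with an unadjusted p of 0.00748 and a limma adjusted p of 0.261. Without CCN3 replicate 1 its Log2FC was 0.38 (adjusted p = 0.202), and without PBS replicate 1 it was 0.56 and passed (adjusted p = 0.116).

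Inhbb, on chromosome 1 from 119343193 to 119350021, had 3.07, 3.11 and 3.21 log2 CPM in PBS replicates 1, 2 and 3, and 3.70, 3.52 and 3.45 in the CCN3 replicates. Again CCN3 replicate 1 was the highest and the groups did not overlap. The Log2FC of Inhbb was 0.42 ± 0.11 (SE), with an unadjusted p of 0.00822 and a limma adjusted p of 0.269. It passed without PBS replicate 1 (adjusted p = 0.143) and without CCN3 replicate 1 (0.148). Activin subunits and the antagonists Fst and Fstl3 therefore all had higher values in the CCN3 treated libraries. The log2 ratio of Inhba to Fst lay between 2.56 and 2.82 in PBS treated and between 2.53 and 3.12 in CCN3 treated libraries, and these ranges overlapped.

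Tgfb1, the isoform most studied in fibrosis, was named in the study as a predicted upstream regulator. The study drew that prediction from its differentially expressed genes, which is a different measure from the transcript level given here. The log2 CPM of Tgfb1 was 6.03, 6.05 and 6.07 in PBS replicates 1, 2 and 3, and 6.20, 6.16 and 6.13 in the CCN3 replicates. The groups did not overlap, but the step between them was small. The Log2FC of Tgfb1 was 0.12 ± 0.06 (SE), with a 95% interval of -0.02 to 0.25 and a limma adjusted p of 0.550. Tgfb2 had a Log2FC of 0.22 ± 0.10 (SE) and Tgfb3 one of 0.06 ± 0.14 (SE), and neither passed. For Tgfb3 the libraries were 6.95, 6.51 and 6.53 log2 CPM with PBS and 6.66, 6.63 and 6.87 with CCN3, so PBS replicate 1 was the highest of all 6. Without PBS replicate 1 the Log2FC of Tgfb3 was 0.20. Tgfb1 and Tgfb3 had similar levels per transcript length in PBS treated ventricles, at 25.8 ± 0.4 and 24.5 ± 4.5 CPM per kilobase (SD, n = 3), and Tgfb2 was lower at 9.84 ± 1.17. The log2 ratio of Tgfb1 to Tgfb3 overlapped between the groups, from -0.93 to -0.45 with PBS and from -0.73 to -0.45 with CCN3.

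Of the BMP ligand genes, Bmp4 and Bmp6 had 4.00 and 7.35 CPM per kilobase in PBS treated ventricles, and Bmp2 was lower than both. Bmp2 had a Log2FC of 0.18, Bmp4 of 0.15 and Bmp6 of 0.04. Bmp2 was higher in all CCN3 treated libraries, at 2.87 ± 0.02 and 3.05 ± 0.06 log2 CPM (SD, n = 3) with PBS and with CCN3, while the groups overlapped for Bmp4 and Bmp6. Gdf15, which encodes a cytokine induced by tissue stress, had the lowest log2 CPM of the measured members, at 0.94, 0.50 and 0.72 log2 CPM in the PBS replicates and 1.39, 0.99 and 1.13 in the CCN3 replicates. Its Log2FC of 0.45 had a wide 95% interval of -0.08 to 0.98 and did not pass.

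**Figure D3:**
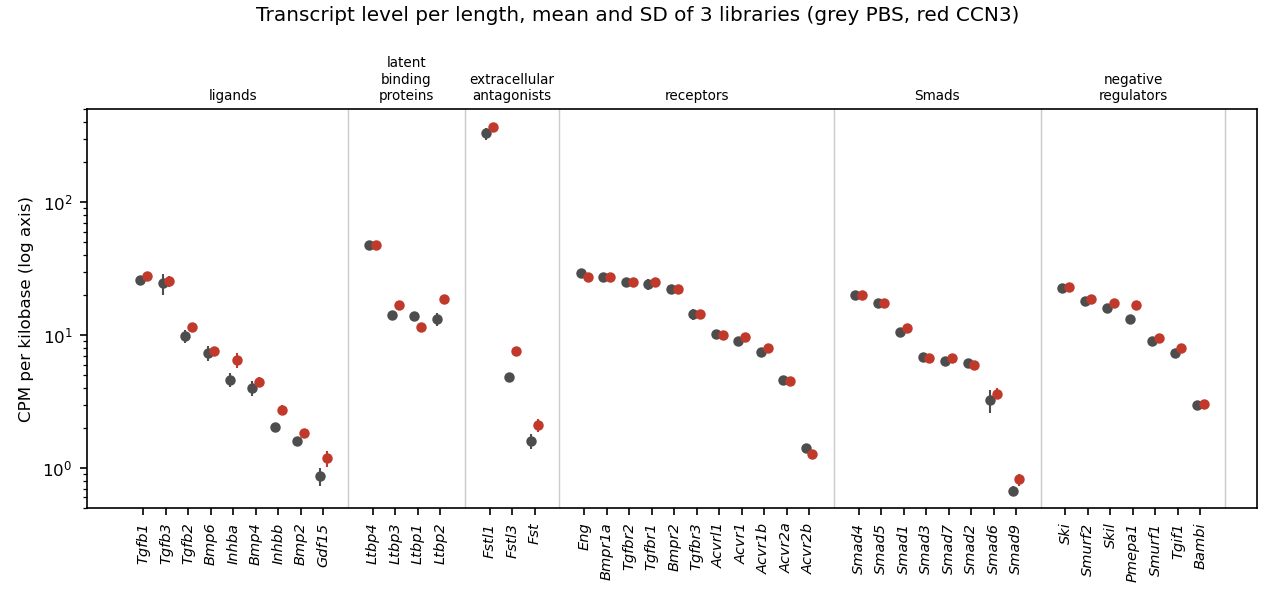
Level of each measured member as CPM per kilobase of its longest annotated transcript on a log axis (points are means and bars SD of 3 libraries, PBS grey and CCN3 red), grouped by class. Fstl1 stands far above all other members, and Gdf15 and Smad9 are the lowest.

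Receptor genes showed no call in either direction in the model that included the removed RUV directions. With treatment alone in the model, Acvr1b was called higher and Acvr2b lower (lowest adjusted p over the alternatives 0.0836 and 0.112). Calls were common in that fit, with 2138 of 15909 genes higher and 2633 lower. Of 11 receptors, 5 had a positive and 6 a negative Log2FC, and the median was -0.00057. For Tgfbr2, the type II receptor of TGF-beta, the log2 CPM was 7.75 ± 0.022 with PBS and 7.75 ± 0.015 with CCN3 (SD, n = 3), with a 95% interval for the Log2FC of -0.13 to 0.13. Its type I partner Tgfbr1 had 7.31, 7.07 and 7.10 log2 CPM in PBS replicates 1, 2 and 3, and 7.21, 7.16 and 7.28 in the CCN3 replicates, which overlap. The Log2FC of Tgfbr1 was 0.05 with an interval of -0.15 to 0.25, and that of the coreceptor betaglycan, Tgfbr3, was 0.0070 with an interval of -0.22 to 0.24. Among activin receptors, the type I receptor gene Acvr1b was higher in all CCN3 treated libraries (Log2FC 0.09), and the type II genes Acvr2a (-0.04) and Acvr2b (-0.16) were lower in all of them. These 3 differences were small and did not pass. Of the 11 receptors, 9.09% lay above and 18.2% below PBS without overlap, beside 15.1% and 18.2% of all genes. With Bmpr1a and Bmpr2, which bind BMPs, the intervals of the Log2FC were -0.15 to 0.15 and -0.14 to 0.16.

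Acvrl1 and Eng, a receptor and a coreceptor found mainly on endothelial cells, had Log2FC of -0.04 and -0.10. Acvrl1 had 5.93, 6.01 and 5.97 log2 CPM in the PBS replicates and 5.90, 5.96 and 5.93 in the CCN3 replicates, and the groups overlapped. The log2 ratio of Tgfbr1 to Acvrl1 overlapped between the groups too, where the CCN3 values lay within the PBS range of 1.07 to 1.38. Over all 11 receptors the 95% intervals ran from -0.38 at the lowest, for Acvr2b, to 0.27 at the highest, for Acvr1. The limma adjusted p of the receptors was 0.597 or more. Of the fits that left out 1 library, the one without PBS replicate 1 called Eng lower (adjusted p = 0.172), and none called another receptor. Per transcript length, Eng, Bmpr1a, Tgfbr2, Tgfbr1 and Bmpr2 were the most abundant in PBS treated ventricles, between 22.1 and 29.1 CPM per kilobase, and Acvr2b the least, at 1.42.

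Smad genes did not pass either in the model with the removed RUV directions, while Smad1 and Smad9 were called higher with treatment alone (lowest adjusted p over the alternatives 0.146 and 0.0574). The fit with treatment alone called 2138 of all 15909 genes higher and 2633 lower. The Log2FC of the TGF-beta and activin branch were -0.03 for Smad2 (95% interval -0.17 to 0.11) and -0.01 for Smad3 (-0.21 to 0.18). In the BMP branch they were 0.11 for Smad1, 0.0061 for Smad5 and 0.29 for Smad9, and the shared Smad4 was at -0.01. Smad1 and Smad9 were higher in all CCN3 treated libraries, which is 25% of the 8 Smads beside 15.1% of all genes. Smad9 was scarce, at 2.00, 1.75 and 1.90 log2 CPM in the PBS replicates and 2.34, 2.05 and 2.12 in the CCN3 replicates, with a limma adjusted p of 0.588.

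The inhibitory Smads, which both branches induce as feedback, overlapped between the groups. Smad7 had 4.74, 4.92 and 4.88 log2 CPM in PBS replicates 1, 2 and 3, and 4.88, 4.96 and 4.88 in the CCN3 replicates. Its Log2FC was 0.06 with a 95% interval of -0.13 to 0.25. Smad6 varied the most of the Smads among PBS treated libraries, at 3.28 ± 0.30 log2 CPM (SD, n = 3), and had a Log2FC of 0.19. Smad3 had 5.27, 5.08 and 5.15 log2 CPM in the PBS replicates and 5.21, 5.09 and 5.16 in the CCN3 replicates. The log2 ratio of Smad3 to Smad7 overlapped, from 0.16 to 0.53 with PBS and from 0.12 to 0.32 with CCN3.

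Calls turned on the libraries used and on the variance model. Without the mean-variance trend of the limma prior 0 of the 42 members passed, and 0 genes of 15909 rose and 1 fell. Without PBS replicate 1, 10 members rose and 2 fell (Ltbp1 and Eng), and without CCN3 replicate 1, 5 rose and Ltbp1 fell, while without PBS replicate 3 Fstl3 alone rose. Over all genes these 3 fits without a library called 951 genes higher and 1268 lower, 501 and 825, and 22 and 28. With all libraries these counts were 82 and 172. The Log2FC of each of the 8 members kept its sign in all 6 fits that left out 1 library. Those of Fstl3 and Pmepa1 ranged from 0.64 to 0.72 and from 0.33 to 0.38, and those of Inhba from 0.38 to 0.56. The RUV step of the authors was not repeated in these fits, so a library left out may still have shaped the values of the others.

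**Figure D4:**
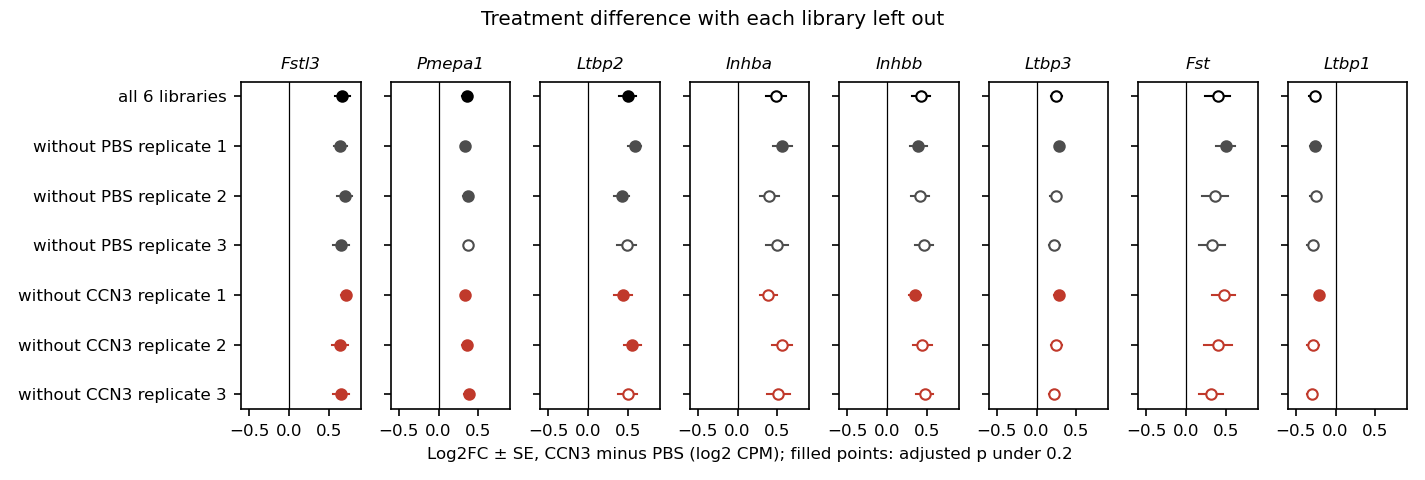
Log2FC ± SE (CCN3 minus PBS, log2 CPM) of the 8 members with an unadjusted p under 0.05, with all 6 libraries (black) and with each PBS (grey) or CCN3 (red) library left out. Filled points have an adjusted p under 0.2. Fstl3 is filled in all 7 fits, and Pmepa1 is open without PBS replicate 3 alone.

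Other genes of the pathway were read from 3 lists that share no gene with the members. Of 82 further components, such as other ligands, antagonists, activators and Smad modifiers, 70 were measured and 0 passed, while 9 were higher and 1 lower at an unadjusted p under 0.05. These are 12.9% and 1.43% of the 70, beside 4.05% and 6.59% of all genes. Gdf6, a BMP family ligand gene, was just short of the threshold, with 3.46 ± 0.15 and 4.18 ± 0.26 log2 CPM (SD, n = 3) with PBS and with CCN3 and a limma adjusted p of 0.202. Fbn2 and Bgn, genes of a microfibril protein and a proteoglycan that bind TGF-beta complexes or TGF-beta, had Log2FC of 0.37 and 0.28, and Mmp14, a membrane protease gene, one of 0.22. Wfikkn2 was the 1 lower gene at that unadjusted level (Log2FC -0.51, limma adjusted p = 0.347), below PBS in every CCN3 treated library. The median Log2FC of the 70 was 0.04.

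Of 34 genes known to respond to TGF-beta, Ccn2, Lox and Eln rose and 0 fell, with a median Log2FC of 0.13. The 3 genes are 8.82% of the 34, beside 0.515% of all genes that rose and 1.08% that fell. Of the 34, 28 had a positive and 6 a negative Log2FC. Groups overlapped for Postn (-0.01), Acta2 (0.06) and Fn1 (0.12), and Klf10 (-0.19) was lower in every CCN3 treated library without passing. Some of the 34 genes were already known to move in these data, so their counts are not independent evidence. Of 14 BMP response genes 11 were measured. Id4, which encodes a helix-loop-helix inhibitor, rose by a Log2FC of 0.64 ± 0.14 (SE) with a limma adjusted p of 0.197, as 9.09% of the 11, and 0 fell. Its level was low, at 1.57 ± 0.06 and 2.21 ± 0.04 log2 CPM. Unc5b (Log2FC 0.28), Hey1 (-0.43) and Runx2 (0.22) did not pass. Id1 (-0.19), Id2 (0.03) and Id3 (-0.07) did not pass either, and their groups overlapped. Of the 11 measured genes, 8 had a positive and 3 a negative Log2FC.

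Markers of the cell types in the ventricle were summed as CPM in each library. Cardiomyocyte markers, all 10 of which were measured, summed to between 36543 and 43105 CPM in PBS treated and between 32774 and 35785 CPM in CCN3 treated libraries. The 8 pericyte and smooth muscle markers summed to between 1782 and 2114 CPM and between 1462 and 1592 CPM, so these sums did not overlap either. Rgs5 weighed most in the pericyte and smooth muscle sum, at 10.05 ± 0.18 and 9.61 ± 0.08 log2 CPM (SD, n = 3) with PBS and with CCN3. It did not pass (limma adjusted p = 0.257). Tnni3 was the cardiomyocyte marker that passed, and Kcnj8 and Abcc9 were the pericyte markers that passed, all lower with CCN3. Of the 10 cardiomyocyte markers, 6 (60%) lay below PBS in every CCN3 treated library, beside 18.2% of all genes. Besides Tnni3 these were Mb (Log2FC -0.47), Pln (-0.45), Myl2 (-0.41), Tcap (-0.35) and Myl3 (-0.31), which did not pass. Other markers of these lists lay above PBS in every CCN3 treated library without passing, namely Actc1 (Log2FC 0.30) and Ryr2 (0.25) of cardiomyocytes and Cnn1 (0.34) and Pdgfrb (0.13) of pericytes and smooth muscle. For the 8 fibroblast markers the ranges were 8476 to 10233 and 8745 to 9665 CPM, and for the 8 endothelial markers 1180 to 1256 and 1066 to 1232 CPM. Sums of the 8 macrophage, 6 epicardial and 5 of 6 neutrophil markers overlapped too, as did those of fibroblasts and endothelium. All 8 endothelial markers had a negative Log2FC, and Kdr (-0.22) and Tek (-0.17) were lower in every CCN3 treated library without passing. Of the fibroblast markers, Pdgfra, Tcf21 and Col1a1 lay above PBS in every CCN3 treated library, and Gsn and Dcn below, without passing. Shares above and below PBS were 0% and 25% for endothelial and 37.5% and 25% for fibroblast markers, beside 15.1% and 18.2% of all genes. The 6 atrial markers summed to between 533 and 822 CPM with PBS and between 969 and 1178 CPM with CCN3, where Nppa alone passed. Nppa made up 452 to 724 and 875 to 1080 CPM of these sums, and the other 5 atrial markers summed to 81.1 to 97.9 CPM with PBS and 93.1 to 103 CPM with CCN3, which overlap. Of 9 skeletal muscle markers, Myh1, Myh2 and Myh4 were not analysed here, Acta1 rose, and Tnnt3 was highest in CCN3 replicate 1 at 3.78 log2 CPM, beside 2.62 and 2.65 in the other CCN3 treated libraries. Ckm of the same list was lower in every CCN3 treated library (Log2FC -0.40, limma adjusted p = 0.288), and the sums of the 6 measured markers overlapped, at 616 to 797 CPM with PBS and 615 to 827 CPM with CCN3. The part of any of these marker differences in the values of Fstl3, Pmepa1, Ltbp2, Inhba and Inhbb was not tested. Library totals of CPM ran from 1001644 to 1031634, and Pearson correlations between libraries across genes were between 0.989 and 0.998.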

How the data were processed

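Total RNA of left ventricles was used for stranded mRNA libraries. The authors quantified reads with Salmon 1.4.0 on the GRCm39 transcriptome, per the submitters' processing notes and the study's methods, removed 2 RUV factors and deposited log2 CPM values. The authors used edgeR for their own comparison, whose deposited fold changes, p-values and false discovery rates were not used here. The filter on low counts is not given in the sources used here.

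Around the group means the values spanned 2 of 4 possible dimensions. The 2 empty ones were put in the design beside treatment, leaving 2 residual degrees of freedom plus 4.47 from the prior. The test was limma 3.58.1 (R 4.3.3), two-sided, with an empirical Bayes prior that follows the mean level and p-values adjusted by Benjamini-Hochberg over 15909 genes. SDs and p-values reflect the library spread that remained after RUV, and the labels do not say whether libraries came from separate animals. The procedure was tested on simulated data in which the removed directions were unrelated to treatment. Removed directions that vary with treatment were not simulated.

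Members and gene lists were chosen with earlier results of these data known. All members were accounted for. Full values were given for members with an unadjusted p under 0.05, for Tgfb1 and for members of 5 planned ratios. Up to 4 genes with the smallest p were named from each other list, and genes that overlapped or went another way were added. Levels per kilobase used the longest transcript in GENCODE vM39 (GRCm39), whose symbols gave 1 position and start for 14851 of 15909 genes. The alternatives ignored the removed directions, changed the prior, scaling, filter or pseudocount, used a replicate block, or left out 1 library.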

Additional observations from a re-analysis of the deposited data

How the results depend on the processing

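With treatment alone in the model, 15 members rose and 2 fell, and 2138 genes rose and 2633 fell. Without the mean-variance trend, 0 members and 0 genes rose and 1 gene fell. With each library centred on its median, 104 genes fell and the Log2FC of Smad3 was 0.0007. Leaving out 1 library gave 1 to 10 members that rose, 0 to 2 that fell, 22 to 951 genes that rose and 28 to 1268 that fell. Over these fits the near-zero Log2FC of Ltbp4, Smad3 and Tgfb3 changed sign, with ranges of -0.0185 to 0.0246, -0.0575 to 0.0384 and -0.0218 to 0.2009. Those of Bmp6 (-0.065 to 0.1093), Tgfbr2, Tgfbr3, Bmpr1a, Bmpr2, Smad5 and Bambi changed sign too, and that of Smad4 reached 0. The median Log2FC of the members stayed between 0.0625 and 0.0878 in all 13 alternatives. The cause of these shifts was not tested.

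With a replicate block in place of the removed directions, 17 members rose and 2 fell, and 2686 genes rose and 3246 fell. Acvr1b, Acvr2b, Smad1 and Smad9 were called in this fit and with treatment alone. Deviations of samples with the same number correlated at 0.13, 0.97 and -0.98. PBS replicates 1 and 3 correlated best with CCN3 replicates 3 and 1. The deviations spanned only 2 of 4 dimensions after RUV, which pushes such correlations towards large positive or negative values. They therefore cannot show whether the numbers pair the samples, and the main model assumed no pairing. With 3 libraries a group and read depth unknown, low genes such as Gdf15 and Smad9 had wide intervals.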
